A study of Mus musculus with 22 samples.

Results

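The transcription factors described here are 8 regulators that have been tied to the fat-resident and effector states of regulatory T cells (Tregs): Pparg, Gata3, Rora, Id2, Irf4, Batf, Prdm1 and Maf. They were taken by name from a table of 55011 gene symbols, and all 8 were found and passed the filter on low counts in every fit. The study profiled Tregs with and without Bmal1, the circadian clock factor encoded by Arntl, by RNA-seq in 22 libraries. Each library came from 1000 cells carrying the Foxp3-YFP reporter, sorted in 2 rounds from visceral adipose tissue of male C57BL/6 Foxp3.Cre-YFP mice at ZT0, when the lights come on. Tregs labelled Bmal1 WT or Bmal1 KO came from mice on a lean diet (18 weeks old), from mice given high fat diet for 4 weeks (18 weeks old) or 16 weeks (30 weeks old) after 14 weeks of lean diet, and from recipients killed at 20 weeks of age, 9 weeks after adoptive transfer of Tregs. There were 3 libraries of each genotype per diet and 2 of each genotype after transfer. All groups share the Foxp3.Cre-YFP strain. The labels give neither how Bmal1 was deleted nor the diet and lymphocytes of the transfer hosts, and they do not say that libraries of a group came from separate animals. A p-value here therefore reflects the scatter of these libraries, which may be technical.

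Treg cells of visceral fat are a specialised tissue population, known in mice for the IL-33 receptor ST2, chemokine receptors and lipid handling genes, and for restraining inflammation and supporting insulin sensitivity. Their state is built in steps: T cell receptor signals induce BATF and IRF4, IL-33 signals through ST2, and PPARγ, a lipid-activated nuclear receptor better known as the master regulator of adipocytes, completes the fat programme. GATA3 sustains ST2, ID2 blocks E proteins that hold precursor genes on, RORα is a nuclear receptor shared with type 2 innate lymphoid cells and the clock, and Blimp-1 (Prdm1) and c-MAF (Maf) drive effector genes such as Il10.

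On GRCm38 (mm10), with the GENCODE M21 annotation, Pparg spans chr6:115360951-115490399 on the plus strand and Rora chr9:68653786-69388246 on the plus strand. Gata3 lies at chr2:9857078-9890034 and Id2 at chr12:25093799-25097140, both on the minus strand. Irf4 lies at chr13:30749226-30766976 and Batf at chr12:85686669-85709087, both on the plus strand, while Prdm1 (chr10:44437177-44528501) and Maf (chr8:115682942-115707794) are on the minus strand. Antisense genes overlap Pparg (Gm44079), Gata3 (Gm13256), Rora (Gm15511) and Maf (Gm15655), and 4930412O13Rik and 9230102O04Rik also overlap Gata3. The library kit does not mark strand, so reads of a member and its antisense partner cannot be told apart. Irf4, Batf, Id2 and Prdm1 overlap no other annotated gene.

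Because the study deletes a factor that binds E-boxes, the 250 bases before each RefSeq start (build GRCm38.p6) were searched on both strands, which gave 9 windows for 7 of the 8 members, all but Maf. The E-box CACGTG, read by BMAL1 with CLOCK, was in 0 of the 9 windows, against 6.02% of 32851 windows of all genes. Its variant CACGTT was also in 0 of 9 (3.85% of all windows), as were the AP-1 letters TGAGTCA used by BATF with JUN (4.46%) and the interferon response core read by IRF factors, GAAA followed after 2 bases of any kind by GAAA (2.98%). The half-site AGGTCA, read by nuclear receptors including RORα and REV-ERB, was in 2 of 9 windows (14.0% of all), both upstream of Pparg. The GATA letters AGATAA were in 1 of 9 (9.99% of all), upstream of Batf, and no 2 of these matches overlap. The Pparg half-sites are shown first, with the AGGTCA in capitals, at chr6:115361104-115361133 and chr6:115362328-115362357 on the plus strand. They begin 28 and 9 bases before RefSeq starts 1 and 2, and both lie inside exons of longer GENCODE transcripts. The stretches upstream of Pparg start 3 (chr6:115421816-115422065, plus strand) and of Irf4 (chr13:30748983-30749225, plus strand) follow, because Pparg and Irf4 are the members whose libraries at 16 weeks of high fat diet all lay below the lean ones, and neither holds a match. Counts are per gene and do not say which Pparg start was used.
Pparg start 1: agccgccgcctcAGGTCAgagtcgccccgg
Pparg start 2: agggacgcgaggAGGTCAagaaggggcctg
Pparg start 3: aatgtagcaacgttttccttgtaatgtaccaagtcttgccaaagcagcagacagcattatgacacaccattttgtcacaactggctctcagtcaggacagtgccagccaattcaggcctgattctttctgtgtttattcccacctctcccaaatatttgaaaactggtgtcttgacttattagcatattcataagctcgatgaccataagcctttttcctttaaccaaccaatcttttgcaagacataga
Irf4: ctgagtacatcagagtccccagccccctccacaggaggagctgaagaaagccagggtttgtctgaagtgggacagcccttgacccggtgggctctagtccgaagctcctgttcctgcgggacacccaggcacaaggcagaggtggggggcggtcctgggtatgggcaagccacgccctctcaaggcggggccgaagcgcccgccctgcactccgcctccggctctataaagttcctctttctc

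Depth was 1955940 to 3467019 counts per diet library and 4814337 to 5990319 per transfer library. Levels are given as TMM-scaled CPM, a count scaled for library total and composition over all 22 libraries, as mean ± SD over the libraries of a group. Changes are log2 fold changes ± standard error from the edgeR quasi-likelihood test, with p adjusted by Benjamini-Hochberg over all genes tested and a threshold of 0.05. Foxp3, the Treg lineage factor, had group means between 484 and 656 CPM. Nr1d1, a direct BMAL1 target, was at 36.6 ± 9.84 CPM in lean WT and 2.11 ± 1.95 CPM in lean KO libraries (log2 -3.98 ± 0.49, adjusted p = 0.000354), and it was also lower in KO at 4 weeks, at 16 weeks and after transfer. One library stood apart by markers of other cells: KO replicate 1 at 16 weeks had summed adipocyte markers of 57.9 CPM (2.73 to 12.9 CPM in the other 21) and stromal markers of 129 CPM. Its adipocyte sum was mostly Fabp4. In this library 6 of the 8 adipocyte markers had no count. Apart from Fabp4, the highest value of an adipocyte marker in any library was 5.003 CPM, for Plin4. Its endothelial sum, 210.1 CPM, was also the highest. The members' and lists' calls at 16 weeks against lean diet were therefore also computed without this library, the lists' as a choice made after seeing the data.

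Pparg had the widest range of the 8. The lowest group mean was 15.5 ± 9.66 CPM (16 week KO) and the highest 143 ± 11.7 CPM (transferred WT), a ratio of 9.24. In descending order the means were transferred WT, transferred KO (130.2 ± 8.27), lean KO (73.3 ± 11.8), lean WT (64.2 ± 41.5), 4 week KO (56.4 ± 8.09), 4 week WT (42.6 ± 17.5), 16 week WT (20.5 ± 8.95) and 16 week KO. Of the 7 neighbouring pairs in that order, 6 had overlapping libraries, and the gap fell between transferred KO and lean KO. Pparg was also the most variable within groups, with a pooled within-group SD of 0.67 on the log2 CPM scale over the 18 diet libraries, against 0.22 (Batf) to 0.36 (Rora) for the other members.

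**Figure D1:**
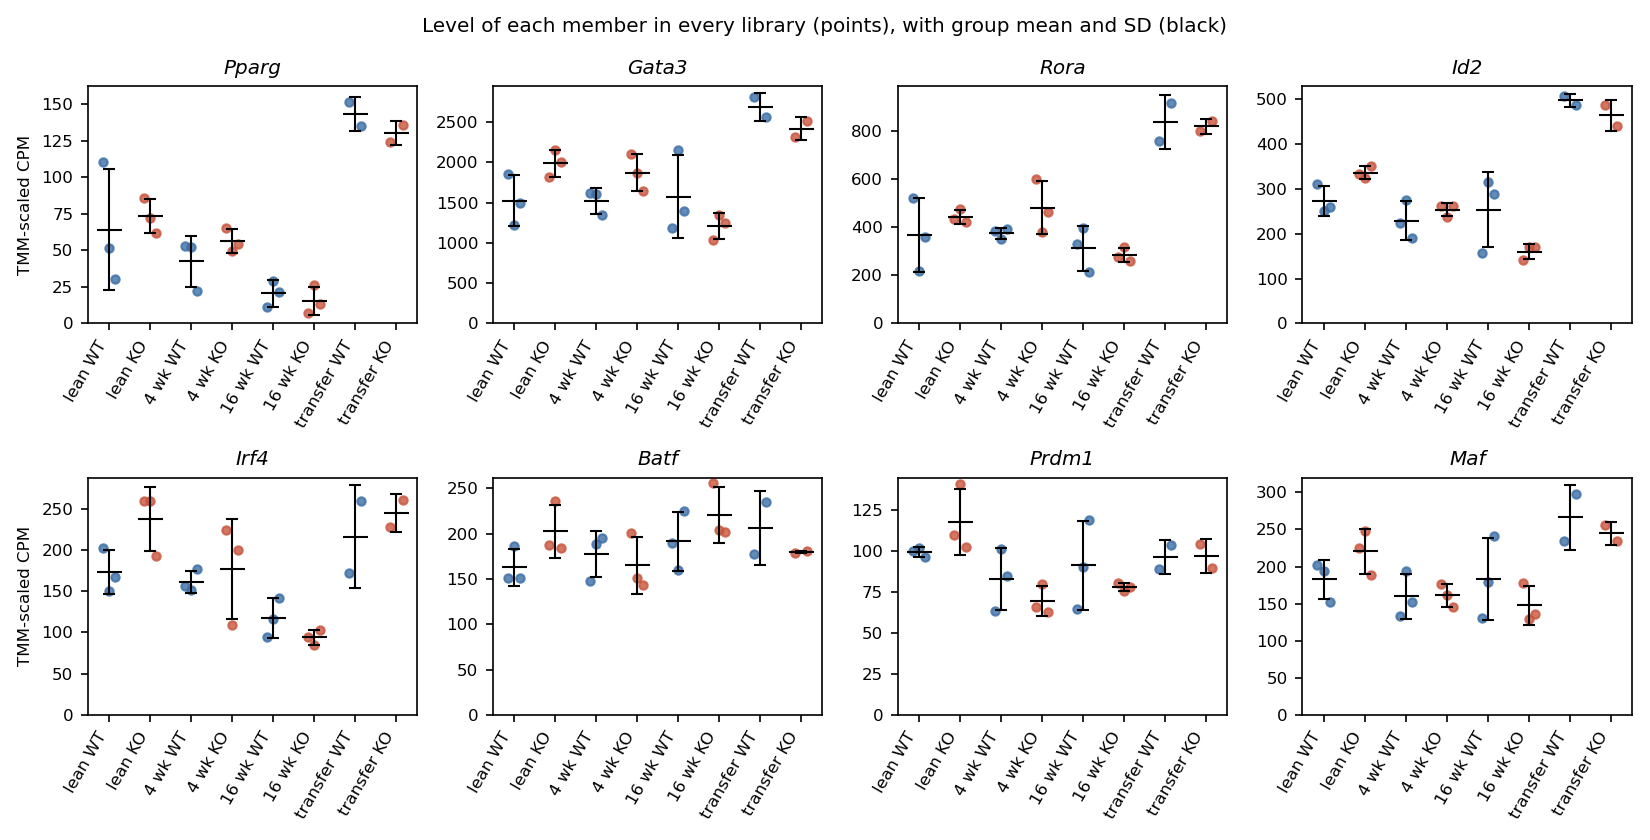
TMM-scaled CPM (vertical axes, starting at 0) of the 8 members in each of the 22 libraries, by diet or transfer and genotype, with WT in blue and KO in red; points are libraries and black bars the group mean and SD. Pparg falls to 7.15 to 29.0 CPM in the 6 libraries of 16 weeks of high fat diet and stands at 124 to 151 CPM in the 4 transfer libraries, while Batf stays between 143 and 256 CPM throughout.

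For 6 of the 8 members the lowest group mean was that of 16 week KO, and for 6 the highest was a transfer group. The share of all genes with these extremes is not given here, and the members vary together. These counts are therefore not a result about the members in particular. Id2 ran from 161 ± 16.6 to 498 ± 13.7 CPM (ratio 3.10), Rora from 285 ± 28.8 to 838 ± 113 (2.94), Irf4 from 94.1 ± 9.03 to 245 ± 23.3 (2.60), Gata3 from 1207 ± 161 to 2681 ± 174 (2.22) and Maf from 148 ± 26.1 to 266 ± 44.3 (1.80). The exceptions were Prdm1, lowest in 4 week KO (69.8 ± 9.14) and highest in lean KO (118 ± 20.4, ratio 1.69), and Batf, lowest in lean WT (163 ± 20.04) and highest in 16 week KO (220.3 ± 30.8, ratio 1.35). In the order of group means, neighbours overlapped in all 7 pairs for Batf and Maf, in 6 for Irf4 and Prdm1, in 5 for Gata3 and Rora and in 4 for Id2. In sorted bulk samples, fewer cells with a transcript and less of it per cell cannot be told apart.

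Per kilobase of annotated exon, which allows levels to be compared between genes, Gata3 was the highest member in every group, from 303 ± 40.4 CPM per kb in 16 week KO to 674 ± 43.6 in transferred WT. Batf and Id2 came next in every group, at 116 ± 14.2 and 112 ± 13.5 CPM per kb in lean WT, and Id2 stood above Batf only in the transfer groups. Irf4 (35.3 ± 5.43 in lean WT) and Rora (28.1 ± 11.7) followed, and Maf (22.2 ± 3.18), Pparg (21.7 ± 14.1) and Prdm1 (17.8 ± 0.539) were the lowest in lean WT. Pparg changed place most: it ranked 8 of 8 in WT and KO at 16 weeks (6.95 ± 3.03 and 5.25 ± 3.27 CPM per kb) and 5 of 8 in transferred WT (48.5 ± 3.96). Exon length is the union over all annotated transcripts, so genes with long, rarely used exons, such as Rora at 13071 bases, are understated on this scale.

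KO against WT on lean diet asks whether loss of Bmal1 moves the lineage factors in unchallenged fat. No member passed the test: edgeR called 0 of 8, against 0.0427% of the 11698 genes tested, with 2 of 8 at an unadjusted p under 0.05 (7.17% of all genes) and 0 by DESeq2 or limma voom. All 8 values were above 0, as were 49.6% of all genes, with a median log2 fold change of 0.29, while the median of all genes lay at 0 to 2 decimals. The members vary together, as the correlations below show, so this count of signs is not a test. Irf4 was at 202, 149.9 and 167 CPM in the 3 WT libraries and 259, 260.0 and 193 CPM in the 3 KO libraries (log2 0.46 ± 0.21, adjusted p = 0.664). Gata3 was at 1852, 1225 and 1493 CPM in WT and 1815, 2149 and 1999.6 CPM in KO (log2 0.39 ± 0.18, adjusted p = 0.667). The highest WT library overlapped the KO libraries for both. Id2 (312, 251 and 259 CPM in WT, 334, 324 and 352 in KO) and Prdm1 (100.2, 102 and 96.2 in WT, 109.9, 141 and 103 in KO) had no overlap between genotypes, which held for 2 of 8 members and 13.2% of all genes. Pparg could not be placed: lean WT libraries were at 110.5, 51.9 and 30.2 CPM and the 95% interval of its log2 difference was -0.66 to 1.06. The handling and heat shock list, whose sums were also above WT in KO (summed 8992 to 11743 CPM per library against 4617 to 7506 in WT, 10 of 10 genes above 0, 0 called), moved with these values, as did markers of type 2 innate lymphoid cells, which share Gata3, Rora, Id2 and Pparg with fat Tregs. These summed to 122 to 145 CPM in KO and 29.7 to 84.7 in WT, with a median log2 of 1.15 over 5 genes tested and 0 called. Over the 22 libraries the medians were 43.9 CPM for Il5, 36.5 for Calca, 23.6 for Cxcl3, 4.67 for Il17rb and 2.91 for Il13. Hs3st1 had no count in 17 of the 22. The part of the handling list or of these markers in the members' values was not tested.

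After 4 weeks of high fat diet edgeR again called 0 of 8 between KO and WT (background 0.0684%), with 0 at an unadjusted p under 0.05 (4.62% of all genes) and 0 by DESeq2 or limma voom, and the median of the 8 was 0.15. Gata3 had no overlap, with WT at 1615, 1604 and 1339 and KO at 2102, 1866 and 1644 CPM (log2 0.31 ± 0.18, adjusted p = 0.999), as 9.64% of all genes had. The innate lymphoid markers again summed higher in KO (156 to 176 CPM against 34.9 to 131 in WT, 0 of 5 called). At 16 weeks edgeR called 0 of 8 (background 0.0427%), with 2 at an unadjusted p under 0.05 (9.15% of all genes) and 0 by DESeq2 or limma voom. There 7 of 8 values were below 0, Batf being the exception, and the median was -0.32, while 50.3% of all genes were above 0. Id2 was at 158, 316 and 288 CPM in WT and 142, 170.1 and 170.3 CPM in KO (log2 -0.66 ± 0.19, adjusted p = 0.243), and WT replicate 1 alone fell among the KO libraries. Without that library Id2 passed (log2 -0.91, adjusted p = 0.00488), and over all alternatives tried its adjusted p ranged over 0.000475 to 0.626. Gata3 (log2 -0.39 ± 0.18, adjusted p = 0.534) also had an interval clear of 0 before adjustment, at -0.76 to -0.01. At 16 weeks the innate lymphoid markers summed to 22.99 to 77.5 CPM in KO and 72.6 to 231 in WT (median log2 -1.62), and the endothelial markers to 123 to 210.1 and 52.1 to 161 CPM (3.11 over 2 genes). The handling list had a median of -0.39, 0 genes of these 3 lists were called, and their part in the members' values was not tested.

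Averaged over the 3 diets the member differences were small, with opposite signs in lean and 16 week samples for all members but Batf. In this average edgeR called 0 of 8 (background 0.18%), with 0 at an unadjusted p under 0.05 (7.39% of all genes) and 0 by DESeq2 or limma voom. The values ran from -0.07 (Prdm1) to 0.17 (Rora). The 95% intervals of the average KO to WT difference reached no further than -0.11 to 0.32 for Gata3 and -0.16 to 0.34 for Irf4, but -0.46 to 0.59 for Pparg. After adoptive transfer, edgeR called 0 of 8 (background 0.171%; 0 at an unadjusted p under 0.05 against 6.53% of all genes, 0 by DESeq2 or limma voom). Transferred KO cells had Rora at 799 and 841 CPM and transferred WT cells at 757 and 918 CPM, with a 95% interval for the log2 difference of -0.30 to 0.21. Gata3 had no overlap after transfer (2804 and 2558 CPM in WT, 2313 and 2517 in KO; log2 -0.17 ± 0.09, adjusted p = 0.826), which with 2 against 2 libraries held for 35.6% of all genes.

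**Figure D2:**
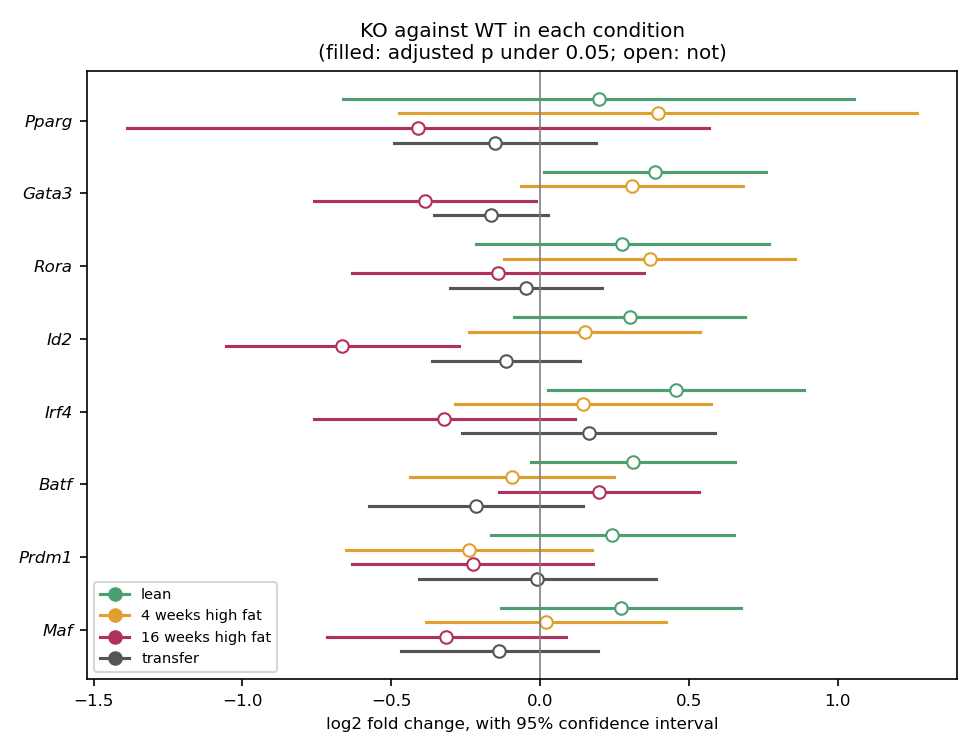
Log2 fold change of KO against WT (horizontal axis, with 95% confidence interval) for each member on lean diet, after 4 and 16 weeks of high fat diet and after transfer. All symbols are open, meaning none passed an adjusted p of 0.05; the lean values lie right of 0 for all 8 members and the 16 week values left of 0 for all but Batf.

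High fat diet for 4 weeks against lean diet compares mice of equal age. Averaged over genotypes, edgeR called 0 of 8 members and 0% of all genes, with 3 of 8 at an unadjusted p under 0.05 (8.04% of all genes) and 0 by DESeq2 or limma voom. Prdm1 came nearest: it was at 63.3, 101 and 84.7 CPM in WT and 66.1, 80.2 and 63.1 CPM in KO at 4 weeks, against the lean values above (log2 -0.51 ± 0.14, adjusted p = 0.244). In KO all 3 Prdm1 values at 4 weeks were below all 3 lean values (log2 -0.75 ± 0.20, adjusted p = 0.413), as were those of Id2 and Maf, so 3 of 8 members did not overlap against 13% of all genes. The handling list summed to 4963 to 6807 CPM in these KO libraries against 8992 to 11743 on lean diet (median log2 -0.93, 0 of 10 called), and its part was not tested. In KO 3 of 8 were at an unadjusted p under 0.05 (7.15% of all genes) and in WT 0 (5.59%), and edgeR, DESeq2 and limma voom called 0 of 8 in each. Pparg was -0.49 with an interval of -1.10 to 0.13.

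After 16 weeks of high fat diet, 3 of the 8 factors were lower than on lean diet, averaged over genotypes: Pparg, Irf4 and Id2. This is 3 of 8 against 3.72% of all genes called lower and 6.63% called in either direction. Pparg was at 11.2, 28.98 and 21.5 CPM in WT and 7.15, 26.1 and 13.3 CPM in KO after 16 weeks, against 110.5, 51.9 and 30.2 CPM in lean WT and 85.5, 72.4 and 62.05 CPM in lean KO. All 6 libraries at 16 weeks were below all 6 lean libraries, though the highest of them (29.0 CPM) lay next to the lowest lean one (30.2 CPM), and Pparg fell 3.87-fold (log2 -1.95 ± 0.31, adjusted p = 0.000686). Irf4, the factor induced by T cell receptor signals, was at 94.3, 117 and 142 CPM in WT and 95.1, 84.7 and 103 CPM in KO at 16 weeks, also below every lean library, and fell 1.93-fold (log2 -0.95 ± 0.15, adjusted p = 0.000489). No overlap over 6 against 6 libraries held for 2 of 8 members and 2.4% of all genes. Id2 fell 1.51-fold (log2 -0.59 ± 0.13, adjusted p = 0.00859), with WT replicates 2 and 3 at 16 weeks within the lean range. These 3 calls held in each of the 25 alternatives tried, with adjusted p from 5e-28 to 0.00316 for Pparg, 1.51e-14 to 0.0023 for Irf4 and 1.06e-06 to 0.0311 for Id2. The lower ends did not come from leaving out libraries, which alone gave 0.000255 to 0.00316 for Pparg, 4.5e-05 to 0.0023 for Irf4 and 0.00208 to 0.0311 for Id2. Of the 25 alternatives, 18 left out 1 library each. Some of those were 4 week libraries, which are on neither side of this comparison and bear on it only through the shared fit. Mice at 16 weeks were 30 weeks old against 18, so diet and age cannot be told apart.

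The other 5 factors did not pass in that average. Gata3 (log2 -0.34 ± 0.13, adjusted p = 0.12), Rora (log2 -0.43 ± 0.17, adjusted p = 0.133), Prdm1 (log2 -0.36 ± 0.14, adjusted p = 0.131) and Maf (log2 -0.29 ± 0.14, adjusted p = 0.243) were below 0. Batf, the AP-1 partner of IRF4, was above it (log2 0.18 ± 0.12, adjusted p = 0.442). For Batf the interval of -0.07 to 0.42 excludes a fall of the size of Irf4. Leaving out WT replicate 2 at 16 weeks, the library highest in Gata3, brought Gata3 past the threshold (log2 -0.49, adjusted p = 0.00553). Rora passed without lean WT replicate 2 (log2 -0.57, adjusted p = 0.023) and Prdm1 without WT replicate 3 at 16 weeks (log2 -0.48, adjusted p = 0.0406). Over all alternatives, adjusted p ranged over 0.000298 to 0.311 for Gata3, 0.000492 to 0.412 for Rora and 0.0406 to 0.31 for Prdm1.

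Within KO, 4 of 8 factors were lower after 16 weeks than on lean diet, against 3.59% of all genes lower and 5.95% in either direction. Pparg fell 4.78-fold (log2 -2.26 ± 0.45, adjusted p = 0.00471), Irf4 2.53-fold (log2 -1.34 ± 0.21, adjusted p = 0.000659), Id2 2.11-fold (log2 -1.07 ± 0.19, adjusted p = 0.0016) and Gata3 1.65-fold (log2 -0.73 ± 0.18, adjusted p = 0.0188). In KO all members but Batf had every 16 week library below every lean library, 7 of 8 against 25.3% of all genes. Leaving out KO replicate 1 at 16 weeks, the library with high Fabp4 and stromal markers and the lowest Pparg, kept Pparg (log2 -1.92, adjusted p = 0.0347), Irf4 (log2 -1.35, adjusted p = 0.00556) and Id2 (log2 -0.99, adjusted p = 0.0164). Gata3 lost its call without that library (adjusted p = 0.0997), without KO replicate 3 at 16 weeks (0.0589) and without lean KO replicate 2 (0.0762). Its range was 2.14e-10 to 0.0997 over all alternatives and 0.00293 to 0.0997 on leaving out single libraries. Prdm1 (log2 -0.60 ± 0.20, adjusted p = 0.0773) and Maf (log2 -0.58 ± 0.19, adjusted p = 0.082) passed on leaving out WT replicate 1 at 16 weeks (adjusted p = 0.0411 and 0.0445), within ranges of 0.0274 to 0.281 and 0.00828 to 0.243. In KO the handling list had 4 of 10 genes lower, the innate lymphoid markers 2 of 5 lower (Il5 and Cxcl3) and the endothelial markers 2 of 2 higher (Pecam1 and Cldn5). Without KO replicate 1 the 4 handling genes passed and Il5 (adjusted p = 0.0911), Cxcl3 (0.127), Pecam1 (0.0961) and Cldn5 (0.144) did not. The part of these lists in the members' values was not tested.

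Within WT, edgeR called 0 of 8 (background 0.0855%), with 2 of 8 at an unadjusted p under 0.05 (8.76% of all genes) and 0 by limma voom. DESeq2 called 0 of 7 and gave no adjusted p for Pparg. Both Pparg (log2 -1.65 ± 0.44, adjusted p = 0.183) and Irf4 (log2 -0.56 ± 0.21, adjusted p = 0.4) had all 3 libraries at 16 weeks below all 3 lean ones, 2 of 8 against 13.8% of all genes. Gata3 (0.05), Maf (0.01) and Id2 (-0.11) lay near 0. Whether the genotypes differ was tested as the interaction: edgeR called 0 of 8 and 0% of all genes, with 4 of 8 at an unadjusted p under 0.05 against 8.49% of all genes (Id2, Gata3, Irf4 and Maf) and 0 by DESeq2 or limma voom. All 8 interaction values were below 0, with a median of -0.60 against -0.01 for all genes, of which 49.2% were above 0. Id2 was -0.97 (adjusted p = 0.314), Irf4 -0.78 (0.466) and Gata3 -0.77 (0.38). For Id2 the interaction passed without WT replicate 1 at 16 weeks (log2 -1.21, adjusted p = 0.00941), and its adjusted p ranged over 0.000535 to 0.647 across alternatives.

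**Figure D3:**
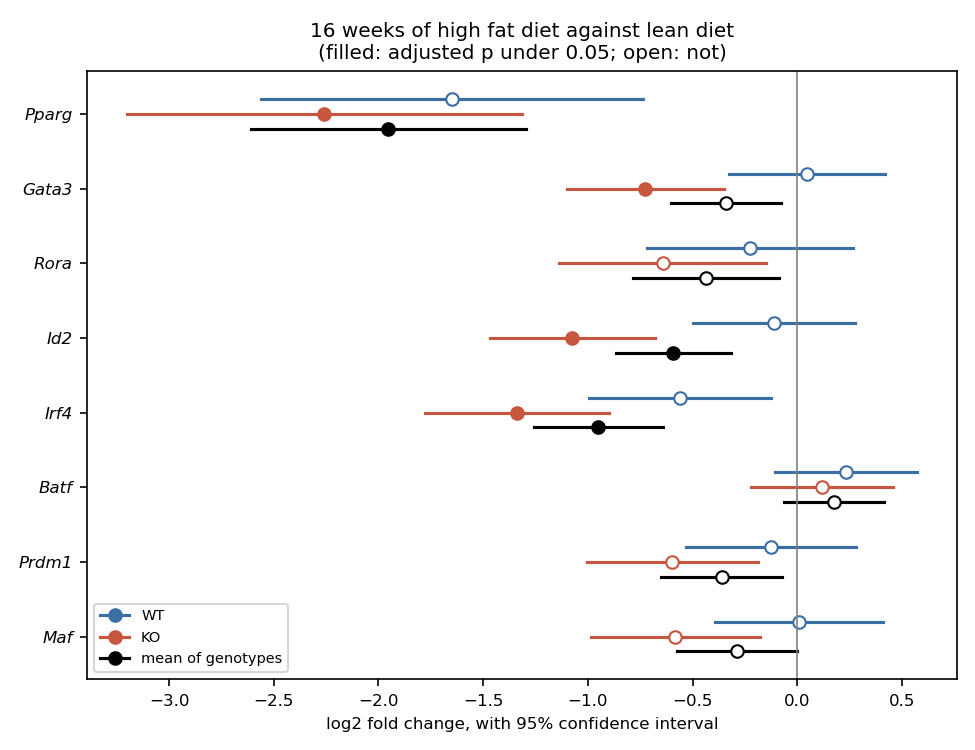
Log2 fold change (horizontal axis, with 95% confidence interval) of each member after 16 weeks of high fat diet against lean diet in WT, in KO and averaged over both; filled symbols passed an adjusted p of 0.05. Filled symbols are Pparg, Irf4 and Id2 in KO and in the average, and Gata3 in KO; no WT symbol is filled, and Batf lies right of 0.

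Markers of other cells and the handling and heat shock list moved in the same comparison, and their part in the members' changes was not tested. The cause of the fall in that list was not tested either. The handling and heat shock list had 0 of 10 genes higher and 4 lower (Egr1, Fos, Atf3 and Jun; Egr1 at log2 -1.83 ± 0.19, adjusted p = 6.44e-06). In KO its summed level went from 8992 to 11743 CPM on lean diet to 3453 to 3947 at 16 weeks (median log2 -2.08, 4 of 10 lower), and in WT from 4617 to 7506 to 3887 to 5414 CPM (median -0.26, 0 lower). Adipocyte markers, of which PPARγ is the known regulator, had summed levels of 3.70 to 8.02 CPM in lean libraries, 2.73 to 8.37 in WT and 10.4 to 57.9 in KO at 16 weeks, with Fabp4 the one called gene of 2 tested (log2 1.84 ± 0.55, adjusted p = 0.0478). Lep and Retn had no count in 21 of 22 libraries and Adipoq in 13, and Adipoq never exceeded 3.07 CPM. The highest sum, in KO replicate 1 at 16 weeks, was mostly Fabp4, with no count for 6 of the 8 markers. Summed endothelial markers were 52.1 to 210.1 CPM at 16 weeks against 42.3 to 80.03 on lean diet, with 1 of 2 tested genes higher (Pecam1, log2 0.80 ± 0.23, adjusted p = 0.0422) of 7 listed. Cldn5 was at 18.1 ± 17.3 CPM in 16 week KO and 0.868 ± 0.357 CPM in lean KO. Markers of type 2 innate lymphoid cells, which share Gata3, Rora, Id2 and Pparg with fat Tregs, had 0 of 5 higher and 1 lower (Il13, log2 -2.90 ± 0.86, adjusted p = 0.0474). Without KO replicate 1 at 16 weeks, Fabp4 (adjusted p = 0.229), Pecam1 (0.0916) and Il13 (0.103) did not pass, while the 4 handling genes did. Summed innate lymphoid markers were 72.6 to 231 CPM in WT and 22.99 to 77.5 in KO at 16 weeks against 29.7 to 84.7 and 122 to 145 on lean diet.

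Genes working around the 8 factors moved both ways in the average of genotypes at 16 weeks. Of 25 effector genes of fat Tregs, 6 rose and 8 fell, with a median of -0.02. The chemokine receptors Ccr2 (log2 -1.12 ± 0.15, adjusted p = 0.000161) and Ccr3 (log2 -1.45 ± 0.21, adjusted p = 0.000239) and the protease Gzmb (log2 -1.87 ± 0.29, adjusted p = 0.000441) fell, while Tnfrsf9, the costimulatory receptor 4-1BB, rose (log2 1.32 ± 0.18, adjusted p = 0.000171). Ccr2 was at 828 ± 44.8 CPM in lean KO and 246 ± 37.7 CPM in 16 week KO. Il1rl1, which encodes ST2, also fell (log2 -0.87 ± 0.24, adjusted p = 0.0293; log2 -1.25 ± 0.34, adjusted p = 0.0304 in KO), at 609.7 ± 283 CPM in lean WT, 729 ± 34.9 in lean KO, 433 ± 277 in 16 week WT and 308 ± 31.7 in 16 week KO. Of 18 PPAR target and lipid genes, 4 rose and 1 fell, with a median of -0.03. Cpt1a, which admits fatty acids to mitochondria, rose (log2 0.52 ± 0.11, adjusted p = 0.0069). So did Dgat2, which makes triglyceride (log2 1.95 ± 0.48, adjusted p = 0.0172), and Cd36, a fatty acid receptor (log2 3.05 ± 0.83, adjusted p = 0.0303). The desaturase Scd2 fell (log2 -1.09 ± 0.28, adjusted p = 0.0241). Cd36 reached 116 CPM in a KO library at 16 weeks and 7.30 CPM at most in any lean library, and adipocytes and endothelium also express it. Without KO replicate 1 at 16 weeks, 4 effector genes were called higher and 5 lower, and 1 lipid gene higher and 1 lower. Il1rl1 (-0.83, adjusted p = 0.0759), Cd36 (2.13, 0.16) and Dgat2 (1.51, 0.0743) were among those that no longer passed.

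Among 14 partners of BATF and IRF4, 0 rose and 4 fell: the AP-1 subunits Jun (log2 -1.001 ± 0.16, adjusted p = 0.000757), Junb (log2 -0.43 ± 0.09, adjusted p = 0.00548) and Jund (log2 -0.67 ± 0.19, adjusted p = 0.0332), and Ikzf3 (log2 -0.49 ± 0.12, adjusted p = 0.0183). Jun is also among the handling genes that fell. Among 13 nuclear receptor partners, 0 rose and 2 fell, the corepressor Ncor1 (log2 -0.39 ± 0.07, adjusted p = 0.00143) and the coactivator Ncoa3 (log2 -0.27 ± 0.07, adjusted p = 0.0176). Of 9 resting and precursor factors 3 rose and 0 fell: Id3, the ID protein of resting T cells (log2 1.15 ± 0.25, adjusted p = 0.00639), Tcf7 (log2 1.08 ± 0.25, adjusted p = 0.0119) and Lef1 (log2 0.61 ± 0.15, adjusted p = 0.0141). Of 21 upstream signalling genes 2 rose and 3 fell. The IL-2 receptor chain Il2ra (log2 -0.86 ± 0.13, adjusted p = 0.00031) and Nfkb1 (log2 -0.60 ± 0.11, adjusted p = 0.0018) were lower. Rel (log2 0.63 ± 0.16, adjusted p = 0.0206) and Stat5b (log2 0.58 ± 0.15, adjusted p = 0.0215) were higher. Among 18 other lineage factors 7 rose and 2 fell, led by Hif1a (log2 0.88 ± 0.11, adjusted p = 6.96e-05), Bhlhe40 (log2 1.19 ± 0.20, adjusted p = 0.000972) and Ahr (log2 1.28 ± 0.29, adjusted p = 0.00961). Id3 was also the one gene called among 19 paralogues and 4 E and ID protein genes. Of 9 clock genes of the REV-ERB and ROR arm, a list without Bhlhe40, 0 were called in this average. Within KO 2 of these 9 were lower, Npas2 and Per3, against 3.59% of all genes. Neither passed without KO replicate 1 at 16 weeks. Of 8 Treg identity genes, Cd3d (log2 0.36 ± 0.07, adjusted p = 0.0036) and Cd3e (log2 0.26 ± 0.07, adjusted p = 0.017) rose and Il2ra fell. Among markers of macrophages, B cells, stroma, mesothelium, red blood cells and cytotoxic cells, with 1 or 2 genes tested in each list, 0 were called, and of 6 dendritic cell markers 1 rose, Cd74. Without KO replicate 1 at 16 weeks, Jund (adjusted p = 0.0937), Ikzf3 (0.0535), Ncoa3 (0.0514) and Rel (0.0587) did not pass, 4 other lineage factors were called higher and 1 lower, and the 3 resting factors kept their calls.

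Pparg and Irf4 were also the 2 factors that fell between 4 and 16 weeks of high fat diet, averaged over genotypes, against 1.53% of all genes lower and 2.11% in either direction. Pparg, at 52.8, 52.5 and 22.4 CPM in WT and 65.3, 49.6 and 54.2 CPM in KO at 4 weeks, fell 2.77-fold (log2 -1.47 ± 0.32, adjusted p = 0.015). Irf4, at 156, 151 and 177 CPM in WT and 224, 109 and 199.8 CPM in KO at 4 weeks, fell 1.60-fold (log2 -0.68 ± 0.15, adjusted p = 0.0161). A 4 week library overlapped the 16 week libraries for each: WT replicate 3 for Pparg and KO replicate 2 for Irf4. Pparg lost its call without KO replicate 1 at 16 weeks (adjusted p = 0.0546; 2.07e-15 to 0.0546 over all alternatives). Irf4 lost it without KO replicate 1 or 3 at 4 weeks (0.0573 and 0.0564) or WT replicate 1 at 16 weeks (0.0527; 3.43e-07 to 0.0573 over all alternatives), while Gata3 passed without WT replicate 2 at 16 weeks (log2 -0.44, adjusted p = 0.0245). This comparison and the one against lean diet share the 16 week libraries, and age differs in both.

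Within KO the same 2 of 8 fell between 4 and 16 weeks (background 1.25% lower, 1.64% either): Pparg 3.66-fold (log2 -1.87 ± 0.45, adjusted p = 0.0365) and Irf4 1.88-fold (log2 -0.91 ± 0.21, adjusted p = 0.0279). Pparg lost its call on leaving out lean KO replicate 2, any KO replicate at 4 weeks, or KO replicate 1 or 3 at 16 weeks (3.03e-12 to 0.205 over all alternatives). Irf4 lost it on leaving out KO replicate 1 or 3 at 4 weeks or any KO replicate at 16 weeks (1.39e-06 to 0.169). Gata3 and Id2 (adjusted p = 0.0809 each) passed without WT replicate 1 (0.0445 and 0.0115) or 2 (0.0195 and 0.0474) at 16 weeks. Batf had all 3 KO libraries at 16 weeks above those at 4 weeks (256, 204 and 201 against 201, 151 and 143 CPM; log2 0.41 ± 0.16, adjusted p = 0.24), and 6 of 8 members had no overlap against 19.6% of all genes. Within WT edgeR called 0 of 8 and 0% of all genes, with 2 of 8 (Pparg and Irf4) at an unadjusted p under 0.05 (7.56% of all genes), 1 of 8 without overlap (11.6% of all genes) and 0 by DESeq2 or limma voom. The interaction between 4 and 16 weeks also gave 0 of 8 and 0% of all genes (2 at an unadjusted p under 0.05, Gata3 and Id2, against 6.7% of all genes; 0 by DESeq2 or limma voom). That between lean diet and 4 weeks gave the same count (0 of 8, 0%; 0 at an unadjusted p under 0.05 against 4.56% of all genes, 0 by DESeq2 or limma voom).

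Tregs recovered from fat 9 weeks after adoptive transfer had 4 of 8 factors higher than resident Tregs of lean mice, averaged over genotypes: Rora, Id2, Gata3 and Pparg. The background was 7.35% of 12523 genes higher and 16.2% in either direction. Rora was at 757 and 918 CPM in WT and 799 and 841 CPM in KO after transfer, against 523, 216 and 361 CPM in lean WT and 434, 475 and 422 CPM in lean KO, 2.06-fold higher (log2 1.04 ± 0.17, adjusted p = 0.000243). Id2 was at 508 and 488 CPM in WT and 489 and 440.2 CPM in KO after transfer, 1.58-fold higher (log2 0.66 ± 0.14, adjusted p = 0.00154). Gata3, at 2804 and 2558 CPM in WT and 2313 and 2517 CPM in KO, was 1.46-fold higher (log2 0.55 ± 0.13, adjusted p = 0.00594). Pparg, at 151 and 135 CPM in WT and 124 and 136 CPM in KO, was 1.99-fold higher (log2 0.99 ± 0.29, adjusted p = 0.0203). All 4 transfer libraries stood above all 6 lean libraries for these 4 members, against 11.7% of all genes. Irf4 (log2 0.18 ± 0.16, adjusted p = 0.489), Batf (log2 0.09 ± 0.13, adjusted p = 0.702), Prdm1 (log2 -0.16 ± 0.15, adjusted p = 0.507) and Maf (log2 0.35 ± 0.14, adjusted p = 0.105) did not pass. Maf passed in 2 alternatives, with no filter on low counts and with only the groups compared (0.0157 to 0.323 over all).

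Of the 29 alternatives, 22 left out 1 library each. Some of those were high fat libraries, which are on neither side of this comparison and bear on it only through the shared fit. The calls of Rora, Id2 and Gata3 held in all 29 alternatives, while Pparg lost its call in 5. Its adjusted p was 0.0536 without lean WT replicate 2, 0.0524 without lean WT replicate 3, 0.0567 without transfer WT replicate 1, 0.0626 without transfer KO replicate 2, and it also missed the threshold in 1 further setting (1.15e-09 to 0.0626 over all). Within WT, 3 of 8 were higher (background 4.62% higher, 10.5% either) and 5 had no overlap (40.7% of all genes): Rora (log2 1.19 ± 0.25, adjusted p = 0.00335), Id2 (log2 0.86 ± 0.19, adjusted p = 0.00575) and Gata3 (log2 0.82 ± 0.19, adjusted p = 0.00721). Gata3 lost its call without transfer WT replicate 1 (0.0615; 7.51e-15 to 0.0615 over all alternatives) and Rora without transfer WT replicate 2 (0.0508; 1.37e-17 to 0.0508). Pparg in WT (log2 1.16 ± 0.41, adjusted p = 0.0708) passed without lean WT replicate 1, the lean library with 110.45 CPM (log2 1.80, adjusted p = 0.00691; 2.61e-06 to 0.259 over all alternatives). Within KO, 1 of 8 was higher (background 1.21% higher, 3.35% either) and 5 had no overlap (33.7% of all genes). That 1 was Rora (log2 0.89 ± 0.25, adjusted p = 0.0473), and its call was lost on leaving out any of 14 single libraries: lean WT replicate 3, any lean KO replicate, WT replicate 1 or 2 or KO replicate 3 at 4 weeks, any KO replicate at 16 weeks, or any transfer library (2.14e-09 to 0.233 over all alternatives). Transfer differs from the resident groups in host, age, experiment and depth at once, which cannot be told apart.

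**Figure D4:**
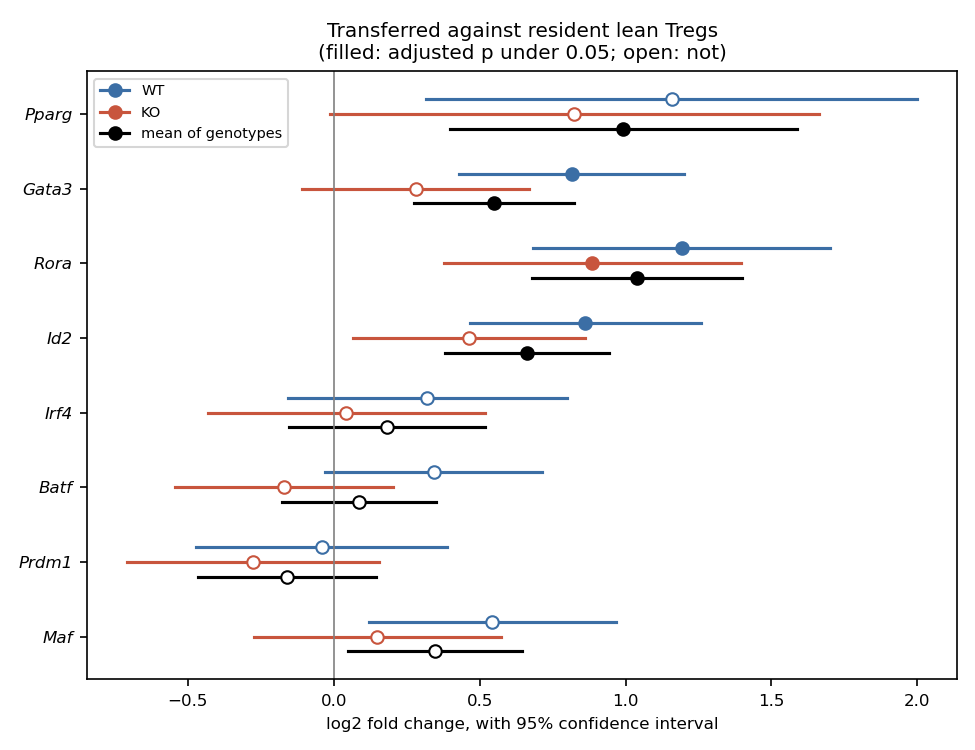
Log2 fold change (horizontal axis, with 95% confidence interval) of each member in transferred against resident lean Tregs in WT, in KO and averaged over both; filled symbols passed an adjusted p of 0.05. Rora is filled in all 3, Id2 and Gata3 in WT and the average, and Pparg in the average; Irf4, Batf, Prdm1 and Maf are open.

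In the transfer comparison, of 25 fat Treg effector genes 11 were higher and 1 lower, with a median of 0.49 against -0.02 for all genes. Il1rl1 (log2 1.04 ± 0.24, adjusted p = 0.00429), the growth factor Areg (log2 1.55 ± 0.25, adjusted p = 0.000147) and Tnfrsf18, which encodes GITR (log2 0.49 ± 0.09, adjusted p = 0.00107), were higher, and Nt5e, the ectoenzyme CD73, was lower (log2 -2.63 ± 0.38, adjusted p = 4.71e-05). Of 18 PPAR target and lipid genes 4 were higher and 0 lower: Hilpda (log2 1.21 ± 0.23, adjusted p = 0.000831), Acadl (log2 0.60 ± 0.12, adjusted p = 0.00139), Dgat1 (log2 0.60 ± 0.12, adjusted p = 0.0018) and the lipid droplet protein Plin2 (log2 0.82 ± 0.28, adjusted p = 0.0489). Of 9 resting and precursor factors 0 were higher and 4 lower, with Bach2 (log2 -4.87 ± 0.36, adjusted p = 4.42e-09), Satb1 (log2 -4.42 ± 0.60, adjusted p = 2.3e-05), Tcf7 (log2 -3.19 ± 0.48, adjusted p = 7.35e-05) and Id3 (log2 -1.20 ± 0.30, adjusted p = 0.00757). Tcf7 was at 88.4 ± 26.8 CPM in lean WT and 5.46 ± 7.47 CPM in transferred WT. Of 21 upstream signalling genes 6 were higher and 6 lower, with Il2ra higher (log2 1.17 ± 0.13, adjusted p = 2.52e-06) and Il2rb lower (log2 -0.86 ± 0.16, adjusted p = 0.000719). Markers of type 2 innate lymphoid cells had 3 of 5 genes higher and 0 lower (Il5, log2 1.83 ± 0.39, adjusted p = 0.00217; Il13, log2 2.39 ± 0.60, adjusted p = 0.00788; Cxcl3, log2 1.51 ± 0.43, adjusted p = 0.0183). They summed to 135 to 372 CPM after transfer against 29.7 to 145 CPM on lean diet. The handling list summed to 8771 to 12382 CPM after transfer, with 3 of 10 genes higher and 0 lower, against 4617 to 11743 CPM on lean diet. The part of either in the members' values was not tested. Of 8 Treg identity genes 4 were higher and 0 lower, Foxp3 among them (log2 0.25 ± 0.08, adjusted p = 0.042).

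How the 8 factors varied together was described over the 18 diet libraries as Pearson correlations of log2 CPM, with no test, since libraries share groups, depth and handling. Prdm1 and Maf, both tied to Il10, were the closest pair (r = 0.85, and 0.83 on deviations from group means). Gata3, Id2 and Pparg formed a second set, with r of 0.82 for Gata3 and Id2, 0.81 for Pparg and Id2 and 0.77 for Pparg and Gata3, and 0.73, 0.71 and 0.70 on deviations. These 3 therefore also varied together among libraries of the same group. Libraries of a group also differed in innate lymphoid markers. In 16 week WT these summed to 74.5, 231 and 72.6 CPM, with Pparg at 11.2, 29.0 and 21.5 CPM, both highest in replicate 2. Replicate 1 was highest in markers and Pparg alike in lean WT (84.7 and 110.45 CPM) and in 4 week KO (176 and 65.3 CPM). In 16 week KO replicate 2 was highest in both (77.5 and 26.1 CPM). In lean KO the sums were 133, 145 and 122 CPM and Pparg was at 85.5, 72.4 and 62.0 CPM, highest in different libraries. In 4 week WT replicate 2 was highest in the markers (131 CPM) and replicate 1 in Pparg (52.8 CPM, against 52.5 in replicate 2). The part of these markers in the correlations was not tested. Rora went with Gata3 (0.76; 0.62 on deviations). Irf4 was different: its r of 0.77 with Pparg fell to 0.22 on deviations, so most of that relation lay between groups. Irf4 and Batf, which bind DNA together, had r = -0.13 (0.31 on deviations). Batf was negative with Pparg (-0.44), Rora (-0.37), Gata3 (-0.35) and Id2 (-0.29) and positive with Maf (0.37; 0.64 on deviations).

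**Figure D5:**
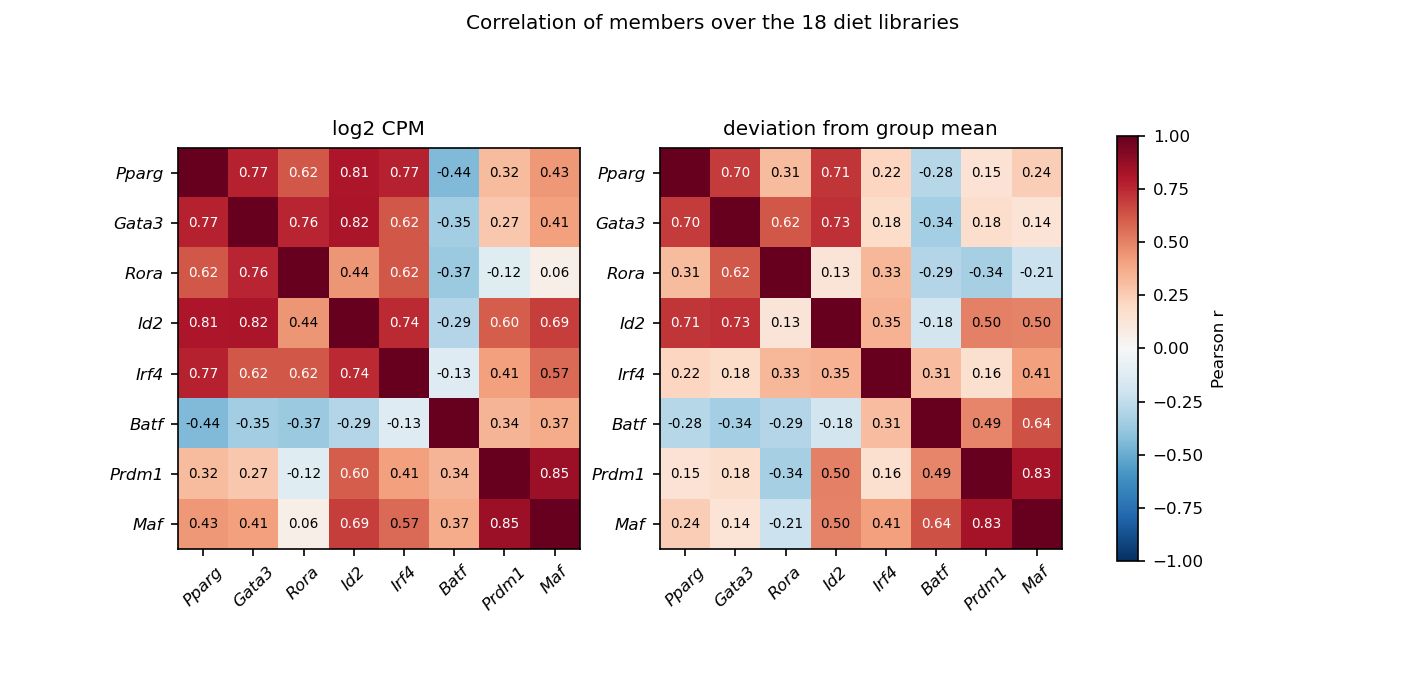
Pearson r between members over the 18 diet libraries, for log2 CPM (left) and for deviations from the group mean (right), on a colour scale from -1 (blue) to 1 (red) with each r printed. Prdm1 with Maf stays above 0.8 in both panels, Pparg, Gata3 and Id2 range from 0.70 to 0.82 with each other over both panels, and Irf4 with Pparg drops from 0.77 to 0.22.

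Outside the list, the genes whose log2 CPM followed each factor best over the same 18 libraries, among 6879 with a mean of at least 20 CPM, were picked by highest r. For Pparg they were Myadm (0.94), Slc52a3 (0.94) and S100a4 (0.93). For Gata3 they were Ctla2a (0.92), Plxna1 (0.91) and Klrg1 (0.91), an inhibitory receptor of terminally differentiated Tregs. Klrg1 kept its r with Gata3 on deviations from group means (0.92), as Myadm did with Pparg (0.85). Irf4 was followed by Cyp51 (0.91), an enzyme of sterol synthesis, and by Capn2 (0.89), with lower r on deviations (0.68 and 0.54). Id2 had Anxa1 (0.93), H2-D1 (0.93) and Eif4e3 (0.91), and Rora had Rgs2 (0.88), Elovl5 (0.87) and Mapk11 (0.87). Il10, the suppressive cytokine, was among the 3 nearest of both Prdm1 (0.83, with Ly6a at 0.87) and Maf (0.83, with Ctsb at 0.82). Batf was nearest to Snrpe (0.90), Prelid2 (0.79) and Commd3 (0.79). Each was picked as the highest of 6879 correlations and describes these libraries.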

How the data were processed

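Poly(A) RNA of 1000 sorted cells per library was oligo(dT) primed, PCR amplified, tagmented and read as pairs of 38 bases, per the labels. The deposited table holds integer counts per gene symbol; the build was mm10 and the tools STAR 2.7.3a and featureCounts, per the submitters' processing notes. The counting version, annotation and strand setting were not stated. No molecular identifiers are described, so PCR copies may be counted as separate reads.

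Groups came from the labels. Counts were tested with edgeR 4.0.16 (quasi-likelihood, TMM, minimum count 10, Benjamini-Hochberg, adjusted p under 0.05) in R 4.3.3: 18 diet libraries in 1 fit with a mean per group (11698 genes), the 4 transfer libraries alone (11715) and all 22 for transfer against lean diet and for levels (12523). Scripts were tested on simulated counts. Alternatives were RLE scaling, library totals, no filter, DESeq2 1.42.0, limma voom (3.58.1), only the groups compared, a replicate block and leaving out each library. List calls without KO replicate 1 at 16 weeks were added after seeing the data. Lengths and overlaps are from GENCODE M21, promoter windows from RefSeq. The members, the 22 other gene lists and the tests were chosen with earlier results of these data known. Named beside the members were up to 4 called genes per list by smallest p, Foxp3 and Nr1d1 as checks, and the 3 genes nearest each member by r (prior count 2), of which 1 is not reported here; Il1rl1 levels, Cd36 maxima and genes beyond this rule were chosen after their values were seen.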

Additional observations from a re-analysis of the deposited data

How the results depend on the processing

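Under the alternatives, 3798 member results kept their direction and their side of the threshold, 50 newly passed and 43 no longer passed. A further 84 that passed in neither fit changed sign, no called result did, and 1 had no adjusted p (Pparg, DESeq2, 16 weeks against lean diet in WT). Without the filter on low counts more members passed: 1 for KO against WT on lean diet, 2 at 16 weeks, 1 for 4 weeks against lean diet on average and 1 in KO, 5 for 16 weeks against lean diet on average, 1 in WT and 7 in KO, 2 for that interaction, 4 for 16 against 4 weeks on average, 1 in WT and 5 in KO, 2 for that interaction, and 5 on average, 5 in WT and 3 in KO for transfer against lean diet. With only the groups compared, 7 passed at 16 weeks in KO, 5 for 16 against 4 weeks in KO, and 5 on average and 2 in KO for transfer. For 16 against 4 weeks in KO, DESeq2 called 4 and limma voom 1, against 2. Over all genes they called 346 and 197, against 192. For transfer in KO, 0 passed with RLE scaling, with library totals or with the replicate block, against 1. With the block 281 of all genes were called there, against 419. The share of all genes called without the filter, or with only the groups compared, is not given here. These counts are therefore not a result about the members in particular. Ranges of adjusted p over all alternatives include these settings. The cause of these changes in the number called was not tested.

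Leaving out single libraries, the number called ran from 0 to 1 for KO against WT at 16 weeks, from 3 to 4 for 16 weeks against lean diet on average, from 3 to 6 in KO and from 0 to 1 for the interaction. It ran from 1 to 3 for 16 against 4 weeks on average and from 0 to 4 in KO. For transfer against lean diet the number is not given here, because some of these fits left 1 library in a transfer group. It stayed at 0 in the other comparisons. The number of all genes called moved too. It was 4 to 35 for KO against WT at 16 weeks, against 5 in the main fit. For 16 weeks against lean diet it was 483 to 967 on average (776 in the main fit) and 373 to 780 in KO (696). The interaction had 0 to 36 (0). For 16 against 4 weeks it was 114 to 425 on average (247) and 32 to 274 in KO (192). Where leaving out a library left a transfer group with 1 library, the lone library was assumed to vary like the other groups.

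Of 11 same-numbered WT and KO pairs of libraries, 1 had a correlation of deviations over 0.1. The 2 transfer pairs share 1 value (0.0142), since with 2 libraries a group the deviations mirror each other. These correlations cannot show whether libraries were paired by animal or sort. With the replicate block the average at 16 weeks kept Pparg (adjusted p = 0.00216), Irf4 (0.00137) and Id2 (0.0151), while Pparg for transfer against lean diet missed the threshold (0.0514) and 3 members passed there. The count of all genes called at 16 weeks was 776, and 661 with the block. For transfer against lean diet on average it was 2023, and 1618 with the block. Pparg had 20 to 93 counts a library at 16 weeks.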
